A study of Mus musculus with 6 samples.

Results

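The progesterone receptor gene Pgr and 8 genes known from other work to act with it or downstream of it around ovulation were followed in mouse cumulus-oocyte complexes. The others were Cxcr4, Zbtb16, Prkg2, Adcyap1, Edn2, Pparg, Cited2 and Cited4. The members were the probe sets for which the array's annotation gave 1 of these symbols and no other, which found 18 of 45037 probe sets and 9 of 18193 named genes. Of the 9 genes, 3 had 1 probe set, 3 had 2 and 3 had 3, and a gene is represented below by its probe set with the highest mean over all arrays unless another is named. The genes were picked with their values on these same arrays in view, so their levels and differences are a description and carry no test. No sample lacked the receptor, so whether any of these genes depends on it was not tested, and the name target comes from outside the data.

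RNA came from 6 pools of complexes, the oocyte with its surrounding cumulus granulosa cells, each hybridised to 1 Affymetrix array. All were wild type and came from immature females given equine chorionic gonadotropin (eCG), which makes follicles grow, for 48 h. The sources used here give neither strain nor exact age. A first pair of pools received no human chorionic gonadotropin (hCG), the luteinizing hormone substitute that triggers ovulation. The others were taken 8 h and 16 h after hCG, again 2 arrays each. By the labels, complexes without hCG were punctured out of ovaries and both later groups out of the oviduct, so the site of collection went with the hormone and the pair cannot be told apart. The labels also call the complexes without hCG expanded. The labels name pooling but not how many animals entered a pool or whether the 2 pools of a group were collected apart, so spreads and p-values reflect these samples and may be technical.

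The progesterone receptor is a nuclear receptor that, once it has bound progesterone, acts as a transcription factor. In granulosa and cumulus cells it appears for a few hours after the luteinizing hormone surge, and mice without it form large follicles that do not rupture. Genes tied to it at that time encode secreted signals (endothelin-2, PACAP), a chemokine receptor (CXCR4), a kinase driven by cyclic GMP (PRKG2), and transcriptional regulators (ZBTB16, PPARG, CITED2, CITED4).

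Values were deposited log2 intensities, on which 1 unit is a doubling, and array medians lay between 6.14 and 6.27. Probe sets with a mean under 5.62, the 40th percentile, were called dim and not tested. The dim limit passed 15 of the 18 member probe sets and all 9 representatives. Among the members, the mean nearest below it was 5.24 (Cited4, second probe set) and the nearest above it 5.88 (Zbtb16, an _x_at probe set). Pgr and Cxcr4 had a mean under it without hCG. At 16 h the mean of Pgr was under it too, so Pgr passed only through its 8 h values, whereas Cxcr4 was above it at 8 h and 16 h. Oocyte markers were lower at 8 h than without hCG for 12 of 12 genes, with a median difference of −2.31. In pooled RNA, fewer cells of a type and less RNA per cell cannot be told apart, which holds for every difference below. The cumulus and granulosa list was present on all arrays, with none of its 10 genes under the dim limit on any array. Of these, 7 were lower at 8 h and 0 higher. Theca and stroma markers were lower at 8 h for 4 of 6 tested, and oviduct epithelium markers higher at 16 h than at 8 h for 2 of 3 tested, and the part of such cells in the members' levels was not tested.

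**Figure D1:**
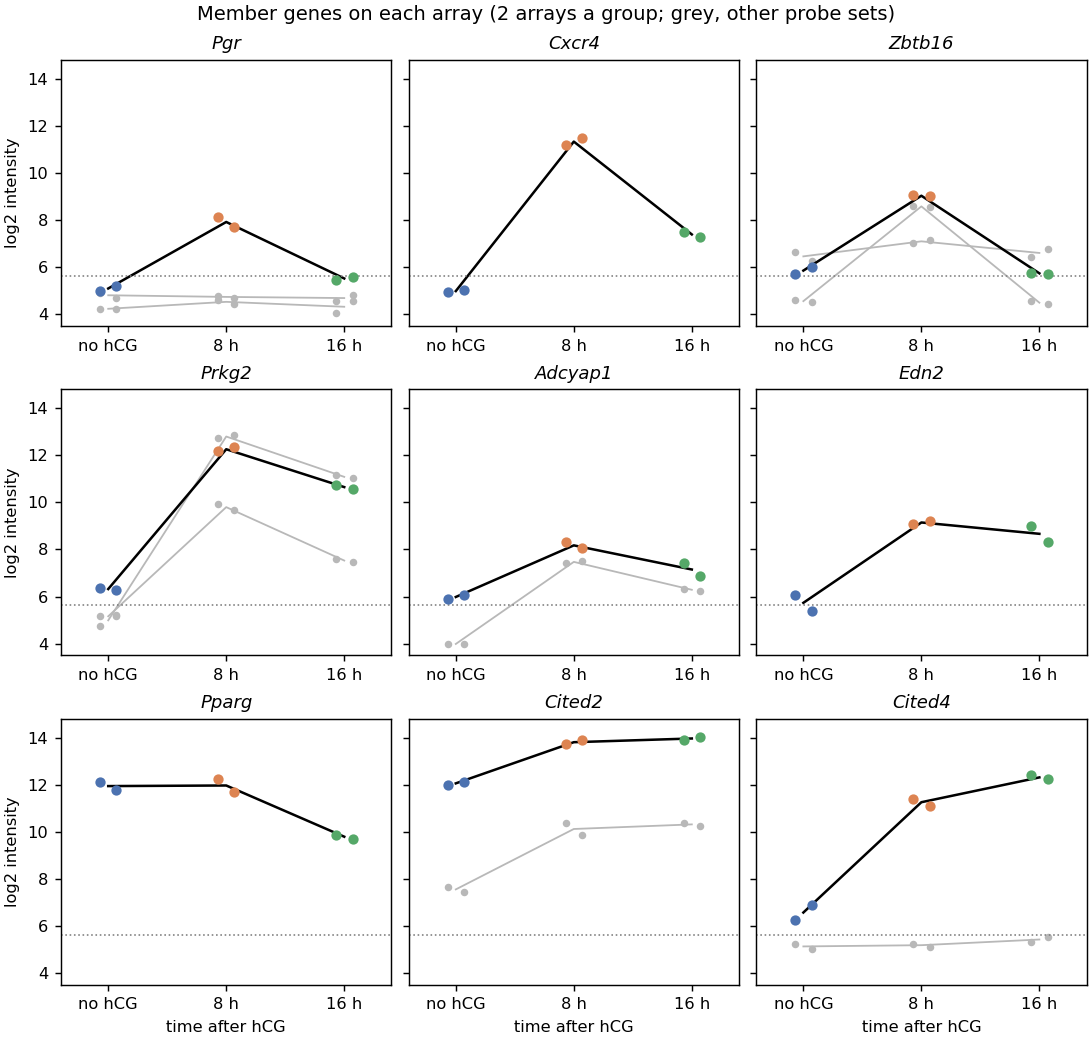
Log2 intensity of the 9 member genes on each array, by group (no hCG, 8 h and 16 h after hCG). Coloured points are the 2 arrays of a group for the probe set with the highest mean and the black line joins the group means. Grey points and lines are other probe sets of the gene, and the dotted line is the dim limit of 5.62. Pgr, Cxcr4 and Zbtb16 peak at 8 h, Cited4 is highest at 16 h and Pparg is low only at 16 h.

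Pgr itself was high at 8 h, and under the dim limit without hCG and at 16 h. Its representative probe set read 4.98 and 5.21 without hCG, 8.13 and 7.71 at 8 h, and 5.45 and 5.60 at 16 h. Both 8 h arrays lay above all others, and the 16 h arrays lay just above those without hCG with no overlap. The difference between 8 h and no hCG was 2.83 ± 0.19 (log2, SE of the limma fit, n = 2 arrays a group throughout), or 7.09-fold, and that between 16 h and 8 h was −2.40 ± 0.19. Between 16 h and no hCG it was 0.43 ± 0.19. Of the log2 gain at 8 h, 15.1% ± 6.14 (SE) was left at 16 h. The group means without hCG and at 16 h, 5.10 and 5.52, both lay under the dim limit. The share left therefore cannot show how complete the return of Pgr was. The other 2 probe sets of Pgr did not show this course. One read between 4.07 and 4.62 and the other between 4.57 and 4.91 over the 6 arrays, all under the dim limit, and in both the 8 h and 16 h arrays overlapped. The course of Pgr thus rests on 1 of 3 probe sets.

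The 250 bases before the annotated start are shown for 4 members that differ in time course: Pgr, high only at 8 h, Cxcr4 and Adcyap1, partly down again at 16 h, and Cited4, highest at 16 h. They are from RefSeq (GRCm38.p6), 5′ to 3′ on the gene's strand, and the deposited values name no genome build. Windows were found for 7 of the 9 members. Capitals mark every match, on either strand, to a GC box (GGGCGG, the letters bound by Sp1 and Sp3), a cyclic AMP response half-site (TGACG), a progesterone response element core (ACANNNTGT), a hypoxia response element core (ACGTG) or a nuclear receptor half-site (AGGTCA). These motifs can share letters, but in the windows shown no 2 matches did.
Pgr, chr9:8899583-8899832, plus strand: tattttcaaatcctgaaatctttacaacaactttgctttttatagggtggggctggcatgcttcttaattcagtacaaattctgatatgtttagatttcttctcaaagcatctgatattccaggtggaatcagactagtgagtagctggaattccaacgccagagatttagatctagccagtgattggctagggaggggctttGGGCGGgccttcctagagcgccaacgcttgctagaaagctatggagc
Cxcr4, chr1:128592300-128592549, minus strand: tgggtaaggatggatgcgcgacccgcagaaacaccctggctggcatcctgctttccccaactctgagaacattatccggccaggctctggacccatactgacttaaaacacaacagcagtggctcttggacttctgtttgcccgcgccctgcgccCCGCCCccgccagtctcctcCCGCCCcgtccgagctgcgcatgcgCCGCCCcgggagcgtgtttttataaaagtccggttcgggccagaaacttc
Adcyap1, chr17:93198767-93199016, plus strand: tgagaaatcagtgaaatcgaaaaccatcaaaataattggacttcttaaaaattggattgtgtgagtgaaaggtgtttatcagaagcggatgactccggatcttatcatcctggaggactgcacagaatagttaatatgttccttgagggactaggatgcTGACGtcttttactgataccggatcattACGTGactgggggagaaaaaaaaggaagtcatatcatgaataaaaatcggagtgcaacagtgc
Cited4, chr4:120666313-120666562, plus strand: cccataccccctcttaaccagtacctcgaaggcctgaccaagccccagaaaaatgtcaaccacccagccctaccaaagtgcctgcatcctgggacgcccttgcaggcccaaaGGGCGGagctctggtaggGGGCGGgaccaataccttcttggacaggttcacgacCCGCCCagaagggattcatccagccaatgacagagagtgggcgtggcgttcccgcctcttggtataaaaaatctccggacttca

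The capitals in Pgr are 1 GC box, in Cxcr4 and Cited4 3 GC boxes each, and in Adcyap1 1 cyclic AMP response half-site and 1 hypoxia core. For Adcyap1, which has 2 annotated starts, the window of the outermost start is shown. Over the 7 members with a window, 5 held a GC box, against 33.0% of the 27025 genes with a window of that length. The cyclic AMP half-site was in 1 of 7 (17.8% of all genes), the hypoxia core in 2 (16.5%), the nuclear receptor half-site in 1 (13.8%) and the progesterone response element core in 0 (5.88%). A match describes letters in these 250 bases and says nothing of binding.

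By the call rule of an adjusted p under 0.05 in the fit over all probe sets (limma, Benjamini-Hochberg), 8 of 9 members were higher at 8 h than without hCG and 0 lower. Over all 13559 genes tested, 16.9% were called higher and 20.5% lower. From 8 h to 16 h, 1 member was called higher and 6 lower, where 11.8% of all genes were called higher and 9.12% lower. At 16 h against no hCG, 6 were called higher and 1 lower, where 20.8% of all genes were called in each direction. These shares over all genes are also the background for the counts of other gene lists in the text. The late call of Adcyap1 was lost without hCG 8h replicate 1 (difference −0.90) or hCG 16h replicate 2 (−0.75), and that of Cited4 without hCG 8h replicate 2 (0.91), hCG 16h replicate 1 (0.97) or hCG 16h replicate 2 (1.14). Since the members were chosen knowing these comparisons, nothing is read from their counts. The comparisons share arrays, so a high 8 h value enters the first difference with a plus and the second with a minus.

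**Figure D2:**
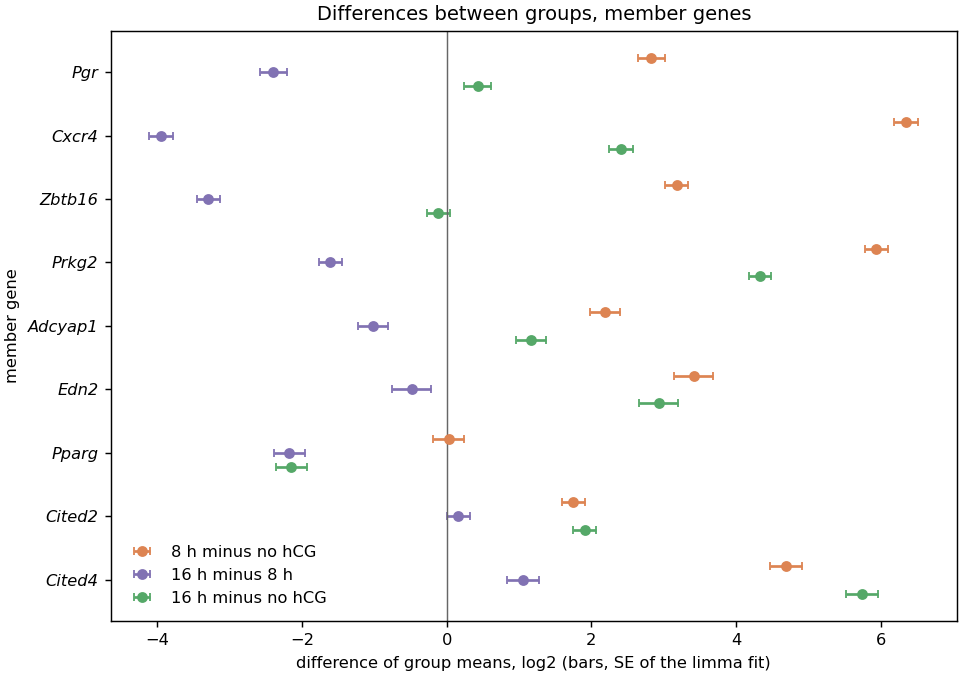
Differences of log2 group means for each member gene, 8 h minus no hCG, 16 h minus 8 h and 16 h minus no hCG, with bars of 1 SE of the limma fit (n = 2 arrays a group). Each gene is shown by its probe set with the highest mean. At 8 h the difference is 6.35 for Cxcr4 and near 0, 0.03, for Pparg. Cited2 and Cited4 lie on the positive side in all comparisons.

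Of the surface receptors, Cxcr4 was high at 8 h and partly down again at 16 h. CXCR4 is the receptor of the chemokine CXCL12 and guides migrating cells. Cxcr4 read 4.94 and 5.03 without hCG, 11.20 and 11.48 at 8 h, and 7.49 and 7.30 at 16 h. The groups stood apart at each step, in the order no hCG, 16 h, 8 h. The difference was 6.35 ± 0.17 at 8 h and −3.94 ± 0.17 from 8 h to 16 h, and at 16 h the gene was still 2.41 ± 0.17 above its start, 5.30-fold, with 37.9% ± 2.29 (SE) of its log2 gain left. Its level without hCG was under the dim limit.

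Leukocytes carry Cxcr4 too, so leukocyte markers are given beside it. Their summed intensity (log2 of the sum over 13 genes) was 10.33 and 10.66 without hCG, 10.50 and 10.63 at 8 h, and 12.68 and 12.79 at 16 h. Of 11 tested, 1 was called higher at 8 h and 0 lower, and from 8 h to 16 h 10 were higher and 0 lower. Without hCG and at 8 h, 4 or 5 of the 13 genes on an array were under the dim limit, and the median over the genes lay between 6.08 and 6.58, with a highest value of 8.92 (Lyz2, the lysozyme of myeloid cells). Ptprc, the pan-leukocyte gene, was under the dim limit on all 4 of these arrays, and read 7.64 and 7.98 at 16 h. Itgam and S100a9 were under it on every array. The part of leukocytes in the level of Cxcr4 was not tested, at 8 h or at 16 h. Of the 7 listed markers of endothelial cells, which can also express Cxcr4, 2 were tested. Of these, 1 was called higher at 8 h and 0 lower, and 2 were called higher at 16 h than without hCG. Pecam1, Tek, Tie1 and Emcn stayed under the dim limit on all 6 arrays, whereas Cdh5 rose at 8 h by 2.86 ± 0.25 (limma adjusted p = 2.16e-05). The part of endothelial cells in the level of Cxcr4 was not tested either. The summed endothelial level was between 8.46 and 8.56 without hCG, 9.17 and 9.38 at 8 h, and 9.39 and 9.40 at 16 h.

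The probe sets of Cxcl12, the gene of the ligand of CXCR4, disagreed. The brightest Cxcl12 probe set differed by −0.22 ± 0.18 at 8 h and was not called (adjusted p = 0.401). A dimmer probe set of Cxcl12 rose by 0.54 ± 0.16 at 8 h (adjusted p = 0.0271) and fell by 0.65 ± 0.16 thereafter (adjusted p = 0.0209). Ackr3, the second receptor of CXCL12, which removes it from the surroundings, read 7.65 and 8.46 without hCG, 7.55 and 8.11 at 8 h, and 9.51 and 9.13 at 16 h. It rose from 8 h to 16 h by 1.49 ± 0.28 (adjusted p = 0.00546), a call lost without hCG 16h replicate 1 (adjusted p = 0.0798, with a lowest of 0.000417 over all alternatives).

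Zbtb16 encodes PLZF, a zinc finger transcription factor that mostly represses its targets. By representative probe sets, it came closest of the members to a complete return. Its representative probe set read 5.72 and 6.0 without hCG, 9.06 and 9.02 at 8 h, and 5.76 and 5.72 at 16 h. The 8 h arrays stood alone and the other 2 groups overlapped. The differences were 3.18 ± 0.16 at 8 h, 9.06-fold, and −3.30 ± 0.16 from 8 h to 16 h, and −3.67% ± 5.11 (SE) of the log2 gain was left at 16 h. The _x_at probe set, a type prone to cross-hybridisation, read 4.59 and 4.53, then 8.59 and 8.58, then 4.55 and 4.44, which is the same course. Its values without hCG and at 16 h all lay under the dim limit, and it passed that limit only through its 8 h values. It therefore cannot show how complete the return was. The last probe set moved less, from a mean of 6.46 to 7.10 and then 6.61, a difference of 0.64 ± 0.19 at 8 h. Its later difference of −0.49 ± 0.19 was not called (adjusted p = 0.118), and 22.7% ± 27.5 (SE) of its log2 gain was left at 16 h. Bcl6, a repressor of the same BTB zinc finger family, went another way, with 6.43 and 7.18 without hCG, 8.46 and 8.81 at 8 h, and 10.07 and 10.33 at 16 h. It rose by 1.84 ± 0.25 and then by a further 1.57 ± 0.25 (adjusted p = 0.000325 and 0.0019). Cul3, the ubiquitin ligase scaffold that binds BTB proteins, differed by 0.55 ± 0.17 at 8 h in its brightest probe set (adjusted p = 0.0301), and none of its other probe sets was called. That call was lost without no hCG replicate 1, without either 8 h array and with the mean of all probe sets, with adjusted p-values from 0.0164 to 0.288 over all alternatives.

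Prkg2 encodes the membrane-bound type of cyclic GMP-dependent protein kinase. All 3 of its probe sets showed the same order of groups, no hCG, 16 h, 8 h, with no overlap. The representative read 6.36 and 6.28 without hCG, 12.18 and 12.34 at 8 h, and 10.75 and 10.55 at 16 h. The second read 4.77 and 5.21, then 12.75 and 12.84, then 11.15 and 11.02. The dimmest read 5.16 and 5.16, then 9.93 and 9.67, then 7.59 and 7.47. Their differences at 8 h, 5.94 ± 0.16, 7.81 ± 0.18 and 4.64 ± 0.16, disagree in size by far more than their errors, so a single fold change for Prkg2 is not given. The share of the log2 gain left at 16 h was 72.9% ± 2.37, 78.1% ± 2.11 and 51.1% ± 2.99 (SE) in the same order. Without hCG, the second and the dimmest were under the dim limit.

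Genes that make and break down cyclic GMP, the activator of this kinase, had several courses. Npr2, the guanylyl cyclase receptor that keeps cyclic GMP high in cumulus cells before the surge, read 12.43 and 12.14 without hCG and 9.89 and 9.62 at 8 h. It fell by 2.53 ± 0.18 (adjusted p = 5.75e-06) and stayed low at 16 h (10.11 and 9.93). Its ligand gene Nppc fell by 2.17 ± 0.16 at 8 h (adjusted p = 8.84e-06). Gucy1a1, a subunit of the soluble cyclase that responds to nitric oxide, fell by 1.93 ± 0.19 from 8 h to 16 h (adjusted p = 0.000121), as it did in all 3 of its tested probe sets. Pde5a, a phosphodiesterase specific for cyclic GMP, read 5.67 and 6.05, then 6.80 and 6.78, then 9.75 and 9.80. It rose by 2.99 ± 0.17 from 8 h to 16 h (adjusted p = 8.4e-06), and all 3 of its probe sets were called in that direction. Prkg1, the other cyclic GMP-dependent kinase gene, was not called in any comparison, with differences of −0.18 ± 0.22 at 8 h and −0.26 ± 0.22 from 8 h to 16 h.

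**Figure D3:**
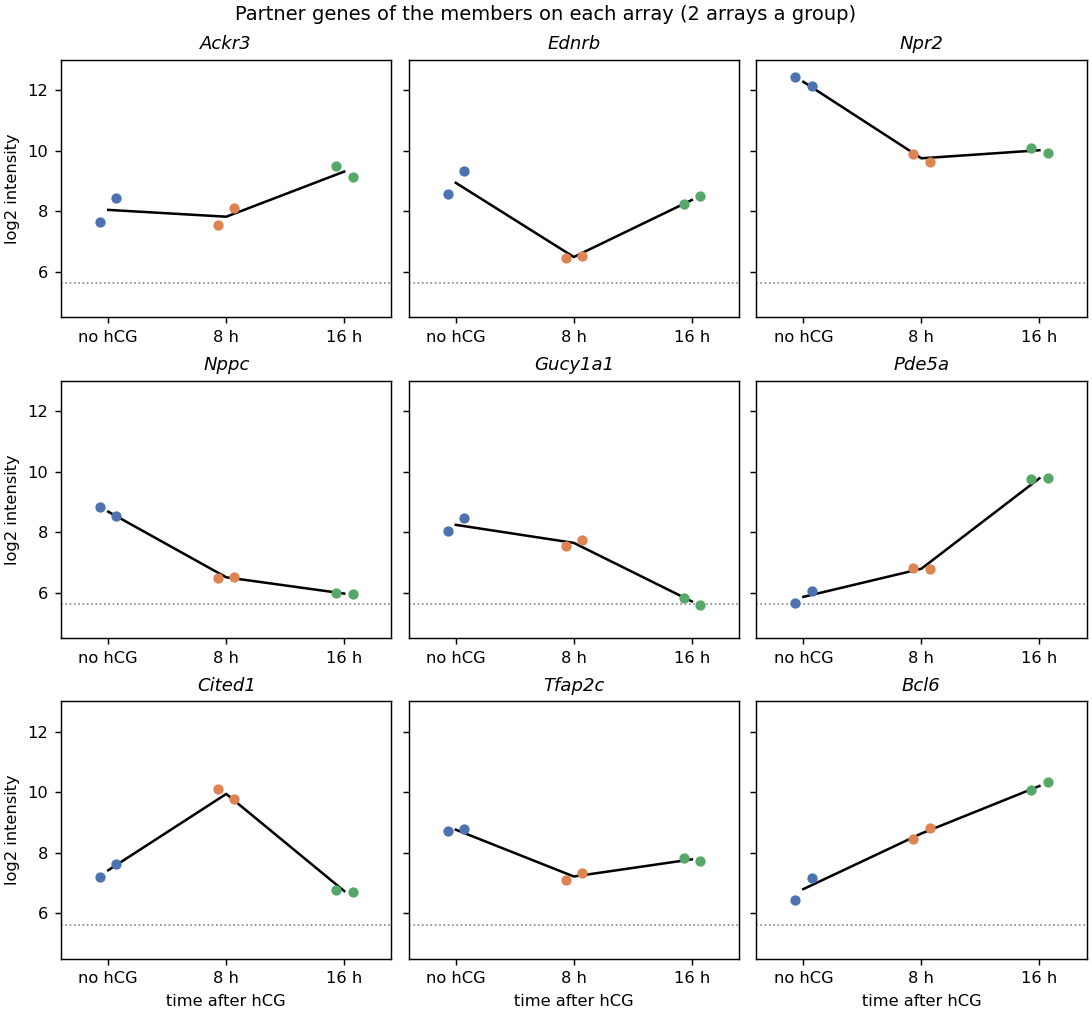
Log2 intensity of the 9 partner genes called changed by at least 1 log2 unit from no hCG to 8 h or from 8 h to 16 h, 2 arrays a group. Points are arrays, lines join group means and the dotted line is the dim limit of 5.62. Ednrb is lowest at 8 h, Cited1 is highest at 8 h, and Pde5a and Bcl6 are highest at 16 h.

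Of the secreted signals, Adcyap1 encodes PACAP, a neuropeptide that raises cyclic AMP. It read 5.88 and 6.08 without hCG, 8.30 and 8.04 at 8 h, and 7.43 and 6.87 at 16 h, with no overlap between groups. The difference at 8 h was 2.19 ± 0.21, 4.57-fold, and from 8 h to 16 h −1.03 ± 0.21. A second probe set read 3.97 and 4.0, then 7.43 and 7.52, then 6.34 and 6.24, a larger difference of 3.49 ± 0.15 from a level under the dim limit. The share of the log2 gain left was 53.2% ± 8.21 and 66.0% ± 3.75 (SE). Its receptor gene Adcyap1r1 read 7.18 and 6.79, then 7.91 and 7.95, then 7.19 and 7.47, and rose at 8 h by 0.95 ± 0.18 (adjusted p = 0.003). A second probe set of Adcyap1r1 was not called, at 0.14 ± 0.17. Vipr1 and Vipr2, receptors shared with the related peptide VIP, were too dim to be tested.

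Edn2 encodes endothelin-2, a peptide that contracts smooth muscle and is made by granulosa cells shortly before the follicle ruptures. It read 6.07 and 5.39 without hCG, 9.06 and 9.23 at 8 h, and 9.01 and 8.32 at 16 h. The difference at 8 h was 3.41 ± 0.27, 10.6-fold, and its largest within-group spread was at 16 h, with an SD of 0.49. Both 16 h arrays lay below both 8 h arrays, by as little as 9.01 against 9.06, and the mean difference, −0.48 ± 0.27, was no larger than that SD. At 16 h, 85.9% ± 7.41 (SE) of the log2 gain was left.

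The endothelin receptor gene Ednrb had the reverse course of Pgr. It read 8.56 and 9.33 without hCG, 6.45 and 6.54 at 8 h, and 8.24 and 8.52 at 16 h. It fell by 2.45 ± 0.24 (adjusted p = 4.15e-05) and then rose by 1.88 ± 0.24 (adjusted p = 0.000535). A dimmer probe set of Ednrb fell by 0.78 ± 0.23 at 8 h too (adjusted p = 0.0279), but was not called thereafter (0.43 ± 0.23). Edn1, which encodes endothelin-1, fell by 0.90 ± 0.17 at 8 h (adjusted p = 0.0025), while Edn3 was not called in any comparison. Of the enzymes that cut the peptides out of their precursors, Ece1 was not called at 8 h (0.29 ± 0.15). Ece2 fell by 0.68 ± 0.21 (adjusted p = 0.0335), a call lost without no hCG replicate 1 and without hCG 8h replicate 2, and with the mean of both probe sets, with adjusted p-values from 0.00601 to 0.265 over all alternatives. Ednra was not analysed here.

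Pparg, a nuclear receptor for fatty acids that binds DNA together with a retinoid X receptor, was the member that did not differ at 8 h beyond the spread of its arrays. It read 12.10 and 11.78 without hCG, 12.25 and 11.67 at 8 h, and 9.88 and 9.70 at 16 h. The first 2 groups overlapped, with a difference of 0.03 ± 0.21 whose sign turned without hCG 8h replicate 1, without no hCG replicate 2 and after quantile normalization (−0.27, −0.13 and −0.06). At 16 h it was −2.18 ± 0.21 from the 8 h level, 4.52-fold lower. Pparg is represented by 1 probe set, and all 6 values were far above the dim limit.

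Genes known to respond to PPARG did not move as one. Of 9 listed, 7 were tested, of which 4 rose and 1 fell at 8 h, and 3 rose and 2 fell from 8 h to 16 h. The median differences were 0.47 and −0.08, beside −0.02 and 0.01 over all genes tested. Fabp4, a fatty acid carrier, read 5.49 and 5.18, then 10.92 and 10.80, then 8.61 and 7.64. It rose by 5.53 ± 0.28 at 8 h (adjusted p = 1.03e-06), from values under the dim limit, and then fell by 2.73 ± 0.28 (adjusted p = 0.000148). Whether PPARG had a part in the differences of these genes was not tested. Angptl4, an inhibitor of lipoprotein lipase, rose by 2.86 ± 0.15 at 8 h (adjusted p = 1.23e-06), and the lipid droplet coat gene Plin2 by 1.10 ± 0.16 (adjusted p = 0.000542). Cd36, a fatty acid transporter, fell by 1.27 ± 0.19 from 8 h to 16 h (adjusted p = 0.00133). Plin2 rose further in that interval by 0.79 ± 0.16 (adjusted p = 0.00773), a call lost without hCG 8h replicate 2 or hCG 16h replicate 1. Lpl, lipoprotein lipase, differed by −0.51 ± 0.16 at 8 h and was called lower (adjusted p = 0.0334). That call was lost without either 8 h array, without no hCG replicate 2 and with median centring. Lpl then rose from 8 h to 16 h by 0.79 ± 0.16 (adjusted p = 0.00702), and was not called at 16 h against no hCG. The late call was lost without hCG 8h replicate 1 and without hCG 16h replicate 2. Fabp4 is also a fat cell gene. The other fat cell markers measured, Adipoq and Lep, were under the dim limit on all 6 arrays.

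The DNA-binding partners of PPARG changed little. Rxra differed by −0.16 ± 0.15 and Rxrb by −0.08 ± 0.17 at 8 h, neither called, and Rxrg was dim. At 16 h, Rxra was lower than without hCG by 0.58 ± 0.15 (adjusted p = 0.011), a call lost without hCG 16h replicate 2 and with the mean of all probe sets (adjusted p-values from 0.00833 to 0.0927 over all alternatives). The related receptor genes Ppara and Ppard differed in opposite directions at 8 h, by −0.66 ± 0.22 and 0.63 ± 0.16 (adjusted p = 0.0449 and 0.0137). Both calls were lost without either 8 h array or without no hCG replicate 2. Over all alternatives adjusted p-values ran from 0.0123 to 0.239 for Ppara and from 0.00723 to 0.113 for Ppard. The coactivator gene Ppargc1a was dim.

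Cited2 and Cited4 encode small proteins that bind the acetyltransferases CBP and p300. CITED2 competes with the hypoxia factor HIF1A for p300. Cited2 read 11.98 and 12.13 without hCG, 13.71 and 13.89 at 8 h, and 13.88 and 14.04 at 16 h. The 8 h and 16 h arrays overlapped, and both stood above those without hCG, by 1.75 ± 0.16 and 1.91 ± 0.16. The second probe set of Cited2 read 7.65 and 7.45, then 10.36 and 9.87, then 10.39 and 10.24, with 2.57 ± 0.19 at 8 h. The shares of the gain left, 109% ± 9.51 and 108% ± 7.78 (SE), were within about 1 SE of all of it.

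Cited4 read 6.24 and 6.89 without hCG, 11.40 and 11.11 at 8 h, and 12.39 and 12.22 at 16 h, and the groups did not overlap. The difference between 16 h and 8 h was 1.05 ± 0.22, after a difference of 4.69 ± 0.22 at 8 h, 25.7-fold. Its net difference at 16 h was 5.74 ± 0.22, 53.4-fold, and 122.5% ± 5.35 (SE) of the log2 gain was present at 16 h. Its second probe set lay between 5.03 and 5.53 on all 6 arrays, under the dim limit, so the course of Cited4 rests on 1 of 2 probe sets. With the mean of both probe sets, the differences were 2.37 at 8 h, 0.65 from 8 h to 16 h and 3.02 at 16 h against no hCG. Cited1, another gene of the family, had another course, with 7.21 and 7.64, then 10.11 and 9.78, then 6.76 and 6.71. It rose by 2.52 ± 0.19 (adjusted p = 9.67e-06) and fell by 3.21 ± 0.19 (adjusted p = 9.48e-06), ending lower than it began by 0.69 ± 0.19 (adjusted p = 0.0181). That last call was lost without either 16 h array or without no hCG replicate 2, with adjusted p-values from 0.0046 to 0.0988 over all alternatives.

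**Figure D4:**
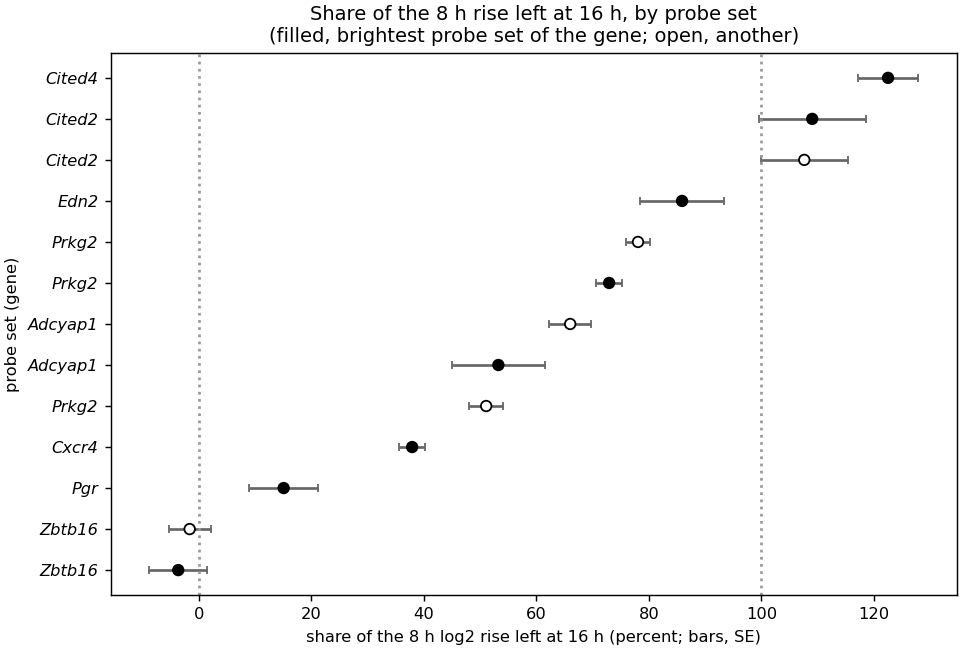
Share of the log2 difference between 8 h and no hCG that was left at 16 h, in percent, for the 13 member probe sets with a difference of at least 1 log2 unit at 8 h. Filled points are the probe set with the highest mean of a gene, open points are others, and bars are 1 SE. Zbtb16 and Pgr are near 0 (−3.67% and 15.1%), and Cited2 and Cited4 lie above the full 8 h difference (109% and 122.5%). Pgr was under the dim limit without hCG and at 16 h, so its share cannot show how complete the return was.

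The proteins that CITED factors bind were also measured. Ep300, which encodes p300, rose at 8 h by 0.92 ± 0.20 (adjusted p = 0.00636), a call lost without hCG 8h replicate 2 (adjusted p = 0.0553, with a lowest of 0.000738 over all alternatives), and Crebbp was not called (0.08 ± 0.18). Tfap2c, a transcription factor for which CITED proteins are coactivators, fell by 1.55 ± 0.16 at 8 h (adjusted p = 5.53e-05). That value came from an _s_at probe set, a type prone to cross-hybridisation. Without such probe sets the gene was not called (adjusted p = 0.117). Tfap2a was not called and Tfap2b was dim.

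Targets of hypoxia-inducible factors went both ways in each interval. Of 11 tested, 4 rose and 2 fell at 8 h, and 6 rose and 3 fell from 8 h to 16 h. Their median differences were −0.09 and 0.96, beside −0.02 and 0.01 over all genes tested. Egln3, an oxygen sensor enzyme, rose by 3.21 ± 0.20 at 8 h (adjusted p = 3.06e-06), and the stress genes Ndrg1 and Ddit4 by 2.45 ± 0.17 and 2.38 ± 0.22 (adjusted p = 5.98e-06 and 2.96e-05). Car9, a carbonic anhydrase, fell by 2.19 ± 0.21 (adjusted p = 3.91e-05). From 8 h to 16 h, Ankrd37 rose by 1.65 ± 0.22, Ndrg1 by 1.63 ± 0.17, the mitophagy gene Bnip3 by 1.30 ± 0.17 and the angiogenic factor gene Vegfa by 1.17 ± 0.15, with adjusted p-values from 0.000184 to 0.000829. The 3 genes that fell in that interval had smaller absolute differences than these and are not named.

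Other ovulatory genes placed downstream of the receptor by earlier work were a list of 9, of which 8 had a probe set and were tested. At 8 h 5 were called higher and 0 lower, and from 8 h to 16 h 0 were higher and 5 lower. The course of several of them was known when they were listed, so these counts are not independent of the members'. Snap25, a vesicle fusion protein, read 4.46 and 3.87, then 10.32 and 10.45, then 6.75 and 5.52, so its 16 h arrays were further apart than those of any member. Ereg, an EGF-like ligand, read 4.72 and 4.53, then 10.52 and 10.57, then 9.81 and 9.87. Its later fall of 0.71 ± 0.15 (adjusted p = 0.0102) was lost without any 1 of the 8 h or 16 h arrays, with adjusted p-values from 0.00347 to 0.0851 over all alternatives. The matrix protease gene Adamts1 rose by 2.84 ± 0.19 (adjusted p = 4.95e-06) and fell by 1.44 ± 0.19 (adjusted p = 0.000731), and the cytokine gene Il6 rose by 3.48 ± 0.21 and fell by 1.12 ± 0.21 (adjusted p = 2.45e-06 and 0.00453). Epas1, which encodes the hypoxia factor HIF-2α, fell by 3.53 ± 0.16 from 8 h to 16 h (adjusted p = 3.26e-06), from 13.37 and 13.53 to 9.78 and 10.07. The 2 probe sets of Ctsl, the protease cathepsin L, disagreed. The brighter one was not called at 8 h (0.46 ± 0.18, adjusted p = 0.0696), and the dimmer one read 8.59 and 8.68, then 10.81 and 11.01, then 8.99 and 8.35, a rise of 2.27 ± 0.21 (adjusted p = 3.26e-05).

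Of 6 genes of chaperones and cochaperones of steroid receptors, 1 rose and 0 fell at 8 h, and 0 rose and 3 fell from 8 h to 16 h. The riser was Fkbp5 (0.70 ± 0.16, adjusted p = 0.00675), a call lost without hCG 8h replicate 2 (adjusted p = 0.0844, with a lowest of 0.00119 over all alternatives). Later Fkbp4 fell by 0.73 ± 0.16, Stip1 by 0.71 ± 0.16 and Dnajb1 by 0.66 ± 0.15 (adjusted p = 0.012, 0.0147 and 0.015). All of these were lost without hCG 8h replicate 1, Fkbp4 and Dnajb1 also without hCG 8h replicate 2, Stip1 and Dnajb1 without hCG 16h replicate 1, and Fkbp4 and Stip1 without hCG 16h replicate 2. Adjusted p-values over all alternatives ran from 0.00385 to 0.157 for these genes. Of 7 coregulators, 1 rose and 2 fell at 8 h. From 8 h to 16 h the corepressor gene Nrip1 alone was called, rising by 1.05 ± 0.16 (adjusted p = 0.00168). Nrip1 had differed by −0.61 ± 0.16 at 8 h (adjusted p = 0.0162), a call lost without no hCG replicate 2 or hCG 8h replicate 1. At 16 h against no hCG it was not called, though some alternatives called it. Over all genes tested, 16.9% were called higher and 20.5% lower at 8 h, and 11.8% and 9.12% from 8 h to 16 h. Nothing is read from the counts of these short lists.

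Of 9 other steroid and progesterone receptor genes tested, 2 rose and 5 fell at 8 h. Both estrogen receptor genes fell, Esr1 by 2.05 ± 0.21 and Esr2 by 1.67 ± 0.16 (adjusted p = 5.03e-05 and 3.32e-05). Of the membrane progestin receptor genes, Paqr6 fell by 1.83 ± 0.19 (adjusted p = 5.55e-05). The glucocorticoid receptor gene Nr3c1 rose by 1.05 ± 0.19 (adjusted p = 0.00179), in all 3 of its tested probe sets. The receptor gene Esr1 then rose from 8 h to 16 h by 0.86 ± 0.21 (adjusted p = 0.0171), a call lost without hCG 8h replicate 1 or without either 16 h array (adjusted p-values from 0.00408 to 0.166 over all alternatives).

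In all, 23 of 29 listed partner genes of the members were tested, of which 6 rose and 8 fell at 8 h, and 5 rose and 4 fell from 8 h to 16 h. Their median differences were −0.16 and 0.10. Over all genes tested, 16.9% were called higher and 20.5% lower at 8 h, and 11.8% and 9.12% from 8 h to 16 h.

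The genes with the time course most like that of Pgr were found by the root mean square difference between log2 values on the 6 arrays, each gene centred on its own mean. Over 12860 named genes the median of this difference was 1.29, and a gene with the same value on all arrays would have 1.25. The smallest was that of Scg2, which encodes secretogranin II of secretory granules, at 0.17. It was followed by Stard5 and Hsd17b11, a lipid transfer protein and a hydroxysteroid dehydrogenase (0.22 each), Entpd1, an ATP-degrading surface enzyme (0.23), and Fam210b (0.23). Nudt9 (0.24), Tsc22d3, a leucine zipper gene known as glucocorticoid-induced (0.25), Kcne4, a potassium channel subunit (0.27), Lrrn3 (0.27) and Gldc, of the glycine cleavage system (0.27), completed the 10. Scg2 lay −1.23 and −1.32 from its mean without hCG, 2.16 and 1.56 at 8 h, and −0.63 and −0.55 at 16 h, where Pgr lay −1.20 and −0.97, 1.95 and 1.53, and −0.73 and −0.59. Before centring, Scg2 read 4.99 and 4.90 without hCG and 5.58 and 5.66 at 16 h, under or close to the dim limit of 5.62. Lrrn3, like Pgr, was under that limit on all arrays without hCG and at 16 h. The rest of the 10 were above it on every array. The Pgr values are those of its representative probe set alone. Among the members, Zbtb16 and Adcyap1 were nearest to Pgr, at 0.39 and 0.60, at rank 48 and 121 among 13558 genes, followed by Cited2 (1.06) and Edn2 (1.14). Pparg (1.28), Cxcr4 (1.46), Prkg2 (1.70) and Cited4 (2.21) were no nearer to Pgr than such a flat gene. This measure counts the size of a difference as well as its timing.

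**Figure D5:**
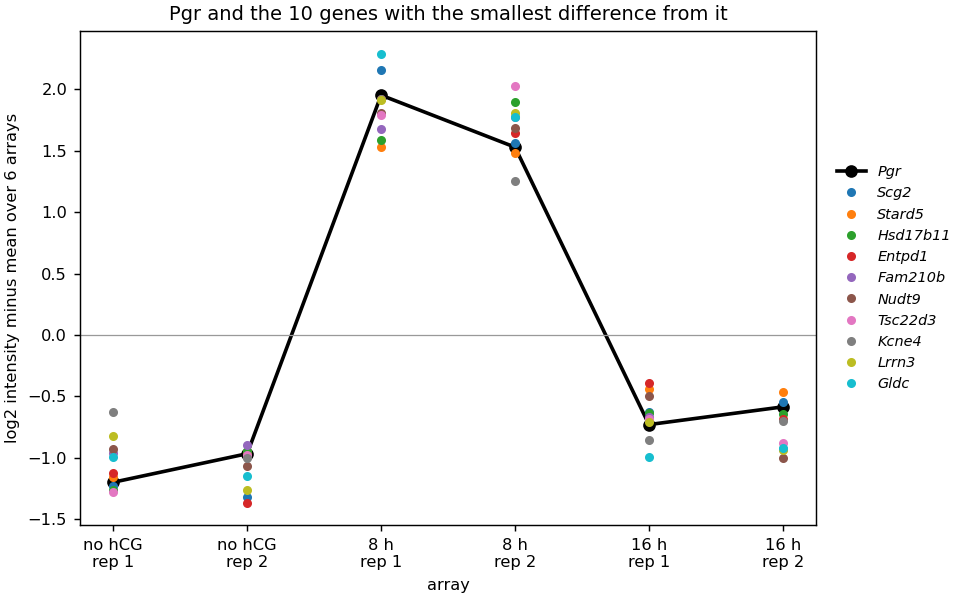
Log2 intensity minus the gene's mean over the 6 arrays, for Pgr (black points and line) and the 10 named genes with the smallest root mean square difference from it (coloured points), on each array. The line joins the arrays of Pgr only to guide the eye. All 10 lie above 0 on both 8 h arrays and below 0 on the other 4.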

How the data were processed

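The deposited values of 6 Affymetrix arrays were log2 intensities, 1 per probe set and array, in the authors' own value table. For that table, software, background correction, normalization and detection calls are not given in the sources used here, and signal over background is unknown. Of 45101 probe sets, 64 controls were left out. Of the rest, 34945 carried 1 gene symbol in the platform's annotation, 932 several and 9160 none, and those with several named no gene.

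Log2 values were fitted with limma 3.58.1 in R 4.3.3 (lmFit and eBayes, group means, all 6 arrays, 3 residual degrees of freedom), two-sided. P-values were adjusted by Benjamini-Hochberg over the 27022 probe sets whose mean passed the 40th percentile (5.62), and called at an adjusted p under 0.05. All p-values in the text come from these fits. Counts of genes used the probe set with the highest mean. The fit was tested on simulated data. The number of arrays limits the precision. The SE of the share left at 16 h follows from the fit.

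The members and the gene lists were chosen with earlier results of these data known. All members and partners could be named. Of each other list, up to 4 called genes with the largest absolute difference were named in each of the first and second comparison, as were the 10 genes nearest to Pgr. Crebbp, Ctsl and the cell type markers named singly fall outside this rule and were chosen after their values were seen. Alternatives covered normalization, the dim filter, the choice of probe set, the fit, a replicate block and leaving out each array. Promoter windows came from RefSeq; those of Zbtb16 and Prkg2 were not used here.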

Additional observations from a re-analysis of the deposited data

How the results depend on the processing

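Called differences of the members kept their sign under each alternative that tested them, which leaves out Pgr under the 60th percentile filter and under the mean of all probe sets of a gene, and Zbtb16 under that filter. Among the members, signs turned for uncalled differences only. That of Pparg at 8 h against no hCG was −0.061 with quantile normalization. With 1 array left out it ran from −0.27 to 0.32, the lowest without hCG 8h replicate 1. That of Zbtb16 at 16 h against no hCG ran from −0.26 to 0.025 with 1 array left out, the highest without no hCG replicate 2. Leaving out 1 array, which leaves a group with a lone array assumed to vary like the others, gave 6109 to 9450 changed probe sets at 8 h (9167 with all arrays) and 2518 to 6340 from 8 h to 16 h (4922 with all arrays). The latter was 2518 without hCG 8h replicate 1, 2819 without hCG 8h replicate 2, 2648 without hCG 16h replicate 1 and 2784 without hCG 16h replicate 2. Over the same comparison 20 to 36 partner and pathway genes were called, against 33. From 8 h to 16 h, the member Adcyap1 was no longer called without hCG 8h replicate 1 or hCG 16h replicate 2, and Cited4 without hCG 8h replicate 2 or either 16 h array. With the 60th percentile filter 6 members were called at 8 h and 5 from 8 h to 16 h, with Pgr and Zbtb16 not tested. With the mean of all probe sets 7 and 6 were called, with Pgr not tested, since its mean then fell under the dim limit. Under that setting 1 called difference among partner and pathway genes changed sign and lost its call, that of Cul3 at 16 h against no hCG. Of the partner and pathway calls, 26 of 41, 17 of 33 and 32 of 45 held under every alternative that tested them, for the early, the late and the net comparison. Replicate numbers are shared between groups, but the labels do not say that they pair samples. Deviations of same-numbered arrays correlated over probe sets at 0.468 (no hCG with 8 h), 0.00103 (no hCG with 16 h) and 0.135 (8 h with 16 h). With the replicate number as a block, 10117, 5812 and 11045 probe sets were called for the early, the late and the net comparison. The members called were 8, 7 and 7 in that order. Signal over background is unknown, which limits low levels such as those of Pgr and Cxcr4 without hCG.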
